A study of Homo sapiens with 6 samples.

Results

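Expression of the aminoacyl-tRNA synthetases was examined in MDA-MB-231 cells that had received a scrambled control, the precursor of hsa-miR-214-3p or that of hsa-miR-205-5p. The set held 39 genes, made up of 20 cytosolic synthetases, 16 mitochondrial synthetases and the 3 scaffold proteins of the multi-synthetase complex. Members were found as array probes designed to a RefSeq transcript of a listed gene, without use of any signal. Of the 50588 probes on every array, 43 belonged to 38 of the genes, and FARSB had no matching probe. A filter on dim probes, which kept those detected well above background by both arrays of any group, left 40 probes of 35 genes, out of 11974 genes tested in all. MARS2, TARS3 and WARS2 were not well above background on any array and were not tested.

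Aminoacyl-tRNA synthetases join each amino acid to the tRNAs that carry its anticodon, and so set the supply of charged tRNA to the ribosome. Class I and class II enzymes have unrelated catalytic folds. Human cells use largely separate nuclear genes for the cytosolic and the mitochondrial enzyme of an amino acid. Several cytosolic enzymes sit together in the multi-synthetase complex on the scaffold proteins AIMP1, AIMP2 and EEF1E1. Many cytosolic synthetase genes are known targets of ATF4, the transcription factor of the amino acid response, which binds the C/EBP-ATF response element. tRNA charging is a basic need of growing cells, cancer cells included.

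MDA-MB-231 is a human triple-negative breast cancer cell line with mesenchymal features. Cells were reverse transfected with a miRNA precursor at 30 nM, and RNA was collected at 72 h. The precursor was that of hsa-miR-205-5p in the first group, that of hsa-miR-214-3p in the second and a scrambled pre-miR negative control, put through the same procedure, in the third, and each group had 2 arrays. RNA was labeled with Cy3 and read on Agilent SurePrint G3 Human GE arrays, which shared 1 slide. The model is a single line with transiently added precursors, and the labels do not state whether replicates came from separate cultures, so p-values measure only the spread between these arrays, which may be technical. Array position and group cannot be told apart, since each group filled adjoining positions of its own.

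The added miRNAs share no seed, as their mature RefSeq sequences show with bases 2 to 8 in capitals. They are shown because they are all that separates the groups by design. Sites for them in the synthetase transcripts were not analysed here.
hsa-miR-205-5p, chr1:209432166-209432187 (GRCh38.p14, plus strand): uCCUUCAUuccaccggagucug
hsa-miR-214-3p, chr1:172138816-172138837 (GRCh38.p14, minus strand): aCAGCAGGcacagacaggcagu

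On the 6 arrays, between 35.4% and 42.2% of the 58717 non-control spots were well above background, and none was saturated. Of the 5 markers of the line, VIM, CD44, AXL, CAV1 and MET, all were well above background on all 6 arrays. Of 5 genes listed as low in the line, ESR1 and PGR were not well above background on any array, while CDH1, EPCAM and GATA3 were on all 6. CDH1 and EPCAM, genes of epithelial adhesion, rose with hsa-miR-205-5p against the control by 1.96 and 2.40 on the log2 scale (adjusted p 0.00799 and 0.00879 in limma), and their part in the synthetase values was not tested. Of 5 markers of other cell types, CD14 was well above background on all 6 arrays, PECAM1 and PTPRC on some, and CD3E and VWF on none. On the hsa-miR-205-5p arrays against the control, CD14 was higher by 1.14 on the log2 scale (adjusted p 0.0243 in limma). PECAM1, whose probe neither hsa-miR-205-5p array read as well above background, was at least 2.26-fold lower. On its values as measured the change was -1.84 (adjusted p 0.00899 in limma). The part of CD14 and PECAM1 in the synthetase values was not tested either. Values below are log2 processed signals minus the array's 75th percentile, so 0 marks that percentile, and they do not rank genes by abundance. A gene was read from its brightest kept probe and was called at an adjusted p under 0.05 in limma with a change of at least 2-fold.

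Against the scrambled control, 5 of the 35 tested synthetase genes fell with hsa-miR-205-5p, and none rose. They were the cytosolic YARS1, AARS1 and CARS1 and the mitochondrial FARS2 and TARS2. Over all 11974 genes, 7.99% were called lower and 4.78% higher. At limma's unadjusted p with the same fold limit, 6 synthetases were lower, with GARS1 added, and 1, NARS2, was higher, against 10% and 5.7% of all genes. At the adjusted p without a fold limit, 6 were lower and 0 higher, against 11.3% and 9.81% of all genes. The median change of the 35 genes was 0.08 on the log2 scale, as was that of all genes, and 16 lay below 0 (45.7%, against 45.4% of all genes).

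YARS1, the cytosolic tyrosyl-tRNA synthetase, showed the largest difference. It measured 2.57 and 3.28 on the control arrays, 2.96 and 2.86 with hsa-miR-214-3p, and -0.07 and -0.03 with hsa-miR-205-5p. Both hsa-miR-205-5p arrays lay far below the other 4, whose values overlapped between control and hsa-miR-214-3p. In the control the mean was 2.92 ± 0.50 (SD, n = 2), and the hsa-miR-205-5p mean was -0.05 ± 0.03 (SD, n = 2). YARS1 fell by 2.97 on the log2 scale (SE 0.26), a 7.85-fold difference with an adjusted p of 0.00799 in limma. With normexp background correction the difference was smaller, at -2.03, and YARS1 was still called. With hsa-miR-214-3p the difference from the control was -0.01, with a 95% interval from -0.66 to 0.65.

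AARS1, the cytosolic alanyl-tRNA synthetase, measured 2.73 and 2.88 on the control arrays. It measured 1.44 and 1.56 with hsa-miR-205-5p, and 3.39 and 3.53 with hsa-miR-214-3p. The 3 groups were fully separated, with hsa-miR-205-5p below and hsa-miR-214-3p above the control. AARS1 fell by 1.31 on the log2 scale with hsa-miR-205-5p (SE 0.16), a 2.47-fold difference with an adjusted p of 0.0105 in limma. The difference of 0.65 between hsa-miR-214-3p and the control (95% interval 0.24 to 1.06) did not pass limma's adjusted threshold, at an adjusted p of 0.101.

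CARS1, the cytosolic cysteinyl-tRNA synthetase, was read from a dim probe. It measured 0.04 and 0.39 in the control, 0.25 and 0.37 with hsa-miR-214-3p, and -1.22 and -1.43 with hsa-miR-205-5p. Control and hsa-miR-214-3p arrays overlapped, and both hsa-miR-205-5p arrays lay below them. The probe was well above background on 5 arrays and not on replicate 2 of hsa-miR-205-5p. CARS1 fell by 1.54 on the log2 scale (SE 0.20), a 2.90-fold difference with an adjusted p of 0.0108 in limma. With normexp background correction the difference was -0.45 and CARS1 was not called (adjusted p 0.0563 in limma).

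Among the mitochondrial enzymes, FARS2, which charges mitochondrial tRNA with phenylalanine, measured 1.95 and 2.68 in the control. It measured 0.93 and 0.98 with hsa-miR-205-5p, and 2.51 and 2.63 with hsa-miR-214-3p. The hsa-miR-205-5p arrays were the lowest, and the hsa-miR-214-3p arrays lay between those of the control. FARS2 fell by 1.36 on the log2 scale (SE 0.27), a 2.57-fold difference with an adjusted p of 0.0261 in limma. The call was lost with normexp (-0.92) and with no filter on dim probes, and held in 11 of 21 settings, the fewest of the 5 genes.

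TARS2, the mitochondrial threonyl-tRNA synthetase, measured 1.07 and 1.20 in the control. It measured -0.18 and 0.20 with hsa-miR-205-5p, and 1.17 and 0.86 with hsa-miR-214-3p. The hsa-miR-205-5p arrays again lay below the other 4. TARS2 fell by 1.12 on the log2 scale (SE 0.21), a 2.18-fold difference with an adjusted p of 0.0237 in limma. The call was lost with normexp (-0.63) and with no filter on dim probes (adjusted p 0.0816 in limma), and held in 12 of 21 settings. It was the smallest of the 5 called differences.

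**Figure D1:**
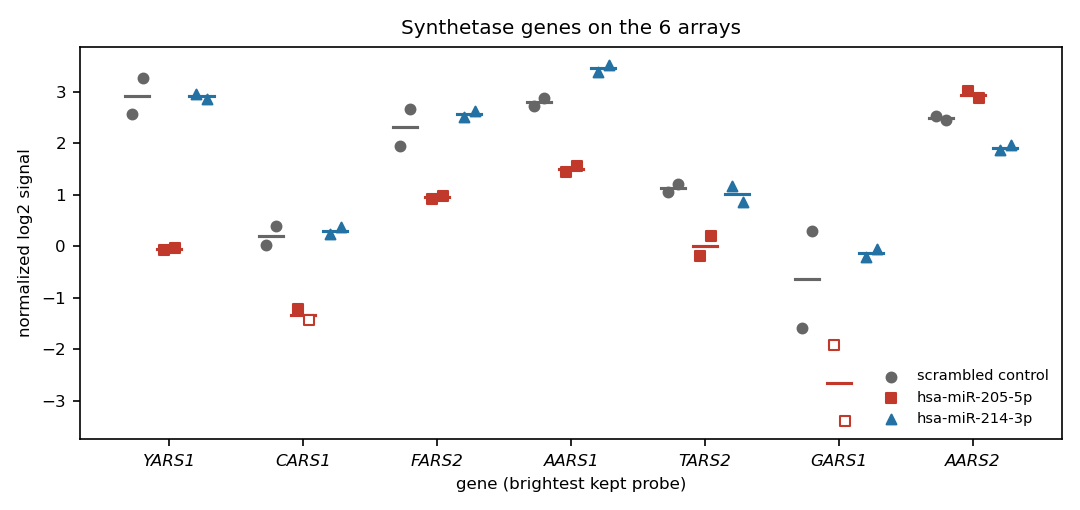
Normalized log2 signal (y axis) of 7 synthetase genes (x axis) on each array, with points for arrays, bars for group means of 2 arrays, and open symbols where the probe was not well above background. The hsa-miR-205-5p arrays lie below all 4 others for YARS1, CARS1, FARS2, AARS1 and TARS2, and above them for AARS2. For GARS1 they are drawn lowest too, but neither was well above background, so their rank against control replicate 1 is not resolved.

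The count of calls varied when an array was left out. Such a fit has a group of 1 array and takes its spread from the other groups. A call lost or gained there cannot show that a difference rests on that array. Without replicate 2 of hsa-miR-205-5p, no synthetase and none of the 11974 genes was called in limma, although all 5 synthetases passed at an unadjusted p. Without replicate 1 of hsa-miR-205-5p, 2 were called lower. The count was 3 without either hsa-miR-214-3p array or without control replicate 2, and 6 without control replicate 1. Each of the 5 changes kept its direction in every setting tried. They ran from -3.36 to -2.03 for YARS1, from -1.70 to -1.23 for AARS1 and from -1.93 to -0.45 for CARS1. For FARS2 and TARS2 they ran from -1.75 to -0.92 and from -1.51 to -0.63.

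FARSA and GARS1 had low values with hsa-miR-205-5p but were not called. FARSA, the catalytic subunit of phenylalanyl-tRNA synthetase, measured 5.24 and 5.23 in the control, 4.27 and 4.25 with hsa-miR-205-5p, and 5.07 and 5.03 with hsa-miR-214-3p. All 3 groups were separate and tight. The difference of -0.97 between hsa-miR-205-5p and control (SE 0.15) had an adjusted p of 0.0144 in limma but, at 1.96-fold, missed the fold limit. FARSA passed both limits with the authors' log2 table, with scaling to the median or to a percentile of the probes detected on all 6 arrays, with quantile normalization and with normexp.

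GARS1, the glycyl-tRNA synthetase of both compartments, was read from a dim probe. It measured -1.58 and 0.31 in the control, -1.90 and -3.39 with hsa-miR-205-5p, and -0.21 and -0.05 with hsa-miR-214-3p. Neither hsa-miR-205-5p array was well above background, and the control replicates were 1.89 apart. With the dim group set at its detection limit, GARS1 was at least 1.97-fold lower with hsa-miR-205-5p than in the control. On its values as measured the change was -2.01, with an adjusted p of 0.114 in limma. The bound sets the control mean against the lowest signal detected on each dim array, or against the probe's own value where that was higher. Those lowest signals were -1.79 and -1.44, and control replicate 1 lay between them, so the bound rests on control replicate 2.

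The other 28 tested members gave changes between -0.60 for HARS1 and 1.08 for NARS2 with hsa-miR-205-5p, and none passed. NARS2, the mitochondrial asparaginyl-tRNA synthetase, measured 0.29 and -0.62 in the control, 0.99 and 0.83 with hsa-miR-205-5p, and 1.12 and 0.95 with hsa-miR-214-3p. Both precursor groups lay above both control arrays, yet the control replicates were 0.91 apart. The adjusted p in limma was 0.071 for hsa-miR-205-5p and 0.111 for hsa-miR-214-3p. SARS2 and VARS1, the mitochondrial seryl-tRNA and cytosolic valyl-tRNA synthetases, followed at 0.68 and 0.61, with adjusted p of 0.088 and 0.109 in limma.

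Over the 35 genes, both hsa-miR-205-5p arrays lay below both control arrays for 10, against 28.7% of all genes. They lay above for 12, against 36.6% of all genes. These shares were near the background of all genes. The size of the hsa-miR-205-5p change was larger than the gap between the control replicates for 22 of the 35 genes. The same count was not made over all genes, so it is not a result about the family. The median gap was 0.42 in the control and 0.12 in each precursor group, so the control was the noisiest group for this family.

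By function, 3 of 18 tested cytosolic enzymes and 2 of 14 tested mitochondrial enzymes fell, against 7.99% of all genes. None of the 3 scaffold genes was called, with values of -0.43 for AIMP2, 0.08 for EEF1E1 and 0.27 for AIMP1. None of the 10 genes of the multi-synthetase complex was called, and their median was 0.17. The 3 cytosolic enzymes that fell, YARS1, AARS1 and CARS1, are not among those 10. Of the class I enzymes 2 of 16 fell, and of the class II enzymes 3 of 15. These counts were not tested against the share of all genes.

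When all tested genes were ranked by mean signal into equal groups, 2 of the 5 synthetases in the dimmest group fell, 3 of the 12 in the middle and 0 of the 18 in the brightest. Of all genes, 8.74%, 9.80% and 5.44% were called lower in those groups. The ranking includes the hsa-miR-205-5p arrays, so a fall itself lowers a gene's rank, as for TARS2, whose control mean of 1.14 lay above the dimmest group's upper limit of 0.79. The part of brightness in the synthetase calls was not tested.

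**Figure D2:**
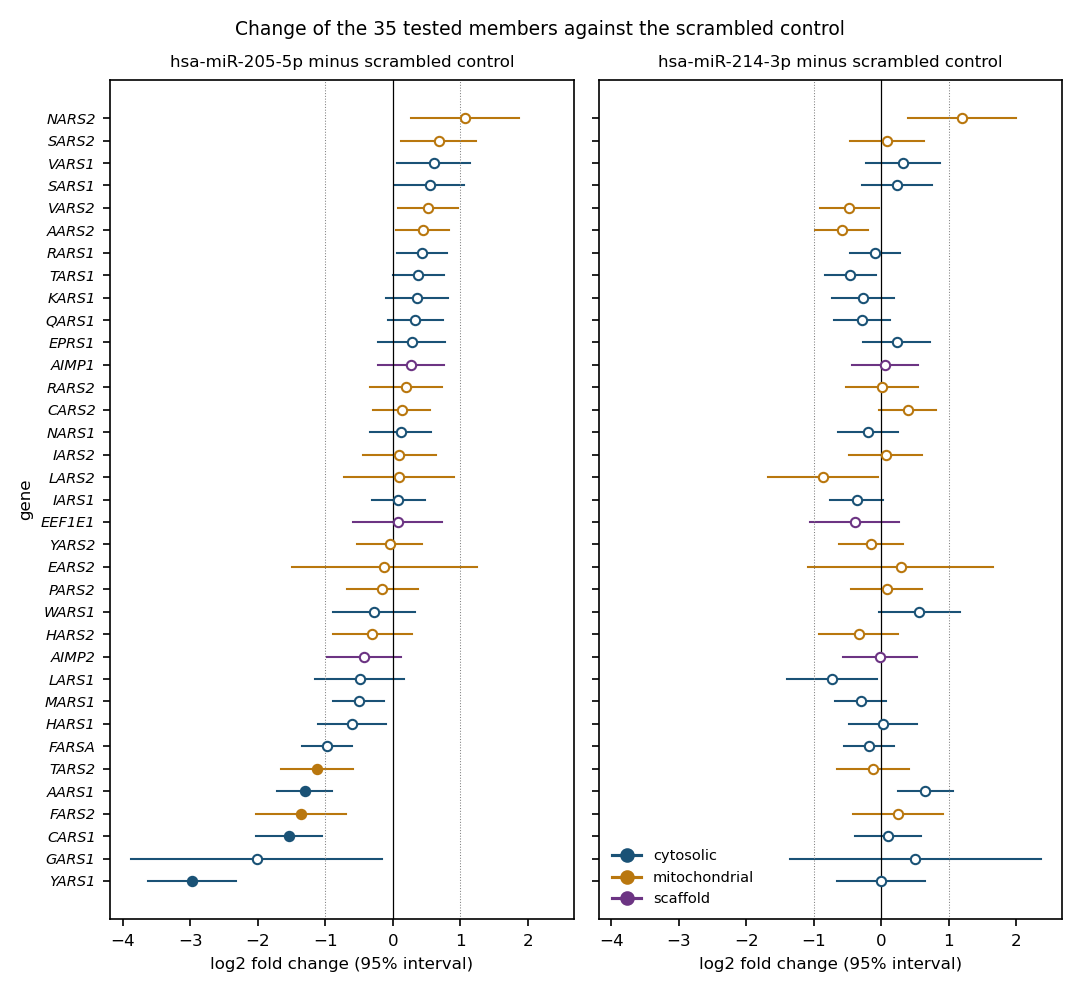
Log2 fold change with its 95% interval (x axis) of the 35 tested members (y axis) against the scrambled control, for hsa-miR-205-5p on the left and hsa-miR-214-3p on the right, with filled points for called genes and dotted lines at 2-fold. Filled points are YARS1, CARS1, FARS2, AARS1 and TARS2 on the left, and there are none on the right.

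Against the scrambled control, hsa-miR-214-3p gave no call among the 35 members in limma, lower or higher. Of all genes, 2.03% were called lower and 1.09% higher. At an unadjusted p with the 2-fold limit, limma gave 0 members lower and 1 higher, NARS2, against 4.13% and 2.66% of all genes. Without a fold limit the members again gave 0 at the adjusted p, against 2.09% of all genes lower and 1.21% higher. The changes ran from -0.86 for LARS2, the mitochondrial leucyl-tRNA synthetase, to 1.20 for NARS2, with a median of -0.01.

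Of the 10 members of the multi-synthetase complex, 8 lay below 0 with hsa-miR-214-3p, and the median was -0.28. Of all genes, 51.0% lay below 0, with a median of -0.01. None of the 10 passed limma's adjusted threshold, and the count of signs was not tested. Both hsa-miR-214-3p arrays lay below both control arrays for 13 of the 35 genes and above for 6, against 30.8% and 27.7% of all genes. The change was larger than the control gap for 13 of the 35 genes, a count likewise not made over all genes.

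LARS2 measured 3.80 and 3.36 in the control, 3.15 and 2.29 with hsa-miR-214-3p, and 3.63 and 3.71 with hsa-miR-205-5p. The hsa-miR-214-3p arrays were the lowest but differed from each other by more than the control arrays did. EARS2, the mitochondrial glutamyl-tRNA synthetase, had the second widest control gap, at -0.47 and 1.25, and its change of 0.29 had a 95% interval from -1.08 to 1.66. Without control replicate 2, the control was only the array at -0.47, and both hsa-miR-214-3p arrays, at 0.79 and 0.57, lay above it. A higher value of EARS2 there rests on 1 control array.

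The precursors were then compared with each other, a comparison that uses the same hsa-miR-205-5p arrays as the first. Here 5 genes were lower and 1 higher with hsa-miR-205-5p, against 11.3% and 9.18% of all genes. The lower genes were YARS1 (-2.97, adjusted p 0.00397 in limma), AARS1 (-1.96, 0.00383), CARS1 (-1.64, 0.00551), FARS2 (-1.61, 0.0116) and TARS2 (-1.002, 0.0217). TARS2 lay on the fold limit, and YARS1 and AARS1 were called in all 21 alternative settings. When 1 array was left out, 2 to 6 genes were lower and 0 or 1 higher.

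The higher gene was AARS2, the mitochondrial alanyl-tRNA synthetase. It measured 2.54 and 2.46 in the control, 3.01 and 2.87 with hsa-miR-205-5p, and 1.87 and 1.96 with hsa-miR-214-3p. The 3 groups did not overlap, and the control lay between the precursors. AARS2 was 2.04-fold higher with hsa-miR-205-5p than with hsa-miR-214-3p, at 1.03 on the log2 scale (SE 0.16) and an adjusted p of 0.00937 in limma. The call was lost with normexp (0.78), with scaling to the median (0.81), with no filter on dim probes (adjusted p 0.0596 in limma), and without hsa-miR-205-5p replicate 1 or either hsa-miR-214-3p array. Neither precursor passed against the control, at 0.44 and -0.59.

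At limma's adjusted p without a fold limit, 7 members were lower and 6 higher with hsa-miR-205-5p than with hsa-miR-214-3p, against 16.0% and 17.9% of all genes. The further lower genes were FARSA at -0.79 and WARS1, the interferon-inducible tryptophanyl-tRNA synthetase, at -0.85. The further higher genes were VARS2 at 0.99, TARS1 at 0.84, KARS1 at 0.64, QARS1 at 0.63 and RARS1 at 0.52. KARS1, QARS1 and RARS1 are enzymes of the multi-synthetase complex that charge lysine, glutamine and arginine.

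VARS2, the mitochondrial valyl-tRNA synthetase, measured 6.28 and 6.21 with hsa-miR-205-5p, 5.24 and 5.26 with hsa-miR-214-3p, and 5.88 and 5.56 in the control. TARS1, the cytosolic threonyl-tRNA synthetase, measured 4.13 and 4.17, 3.29 and 3.33, and 3.70 and 3.83 in the same order. In both genes the control lay between the precursors without overlap. GARS1 was at least 2.80-fold lower with hsa-miR-205-5p than with hsa-miR-214-3p. On its values as measured the change was -2.52, with an adjusted p of 0.052 in limma.

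Of 12 amino acids, each with a cytosolic gene of its own and a mitochondrial gene tested, the values of a pair had opposite signs in 4 with hsa-miR-205-5p against the control, in 7 with hsa-miR-214-3p against the control and in 5 between the precursors. Most of these values did not pass the test, and against the control no pair had both members called. EPRS1, the cytosolic enzyme for both glutamate and proline, was left out of these pairs, and with hsa-miR-205-5p against the control it measured 0.28, with EARS2 at -0.12 and the mitochondrial prolyl-tRNA synthetase PARS2 at -0.15. For alanine, AARS1 was at -1.31 and AARS2 at 0.44 with hsa-miR-205-5p against the control. For threonine, the mitochondrial TARS2 was at -1.12 and the cytosolic TARS1 at 0.38. For tyrosine, YARS1 was at -2.97 and YARS2 at -0.05. Phenylalanine was the one amino acid for which both enzymes passed limma's adjusted p against the control, with FARSA at -0.97 and FARS2 at -1.36. No test was made of the difference within a pair, since the members are read from different probes.

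**Figure D3:**
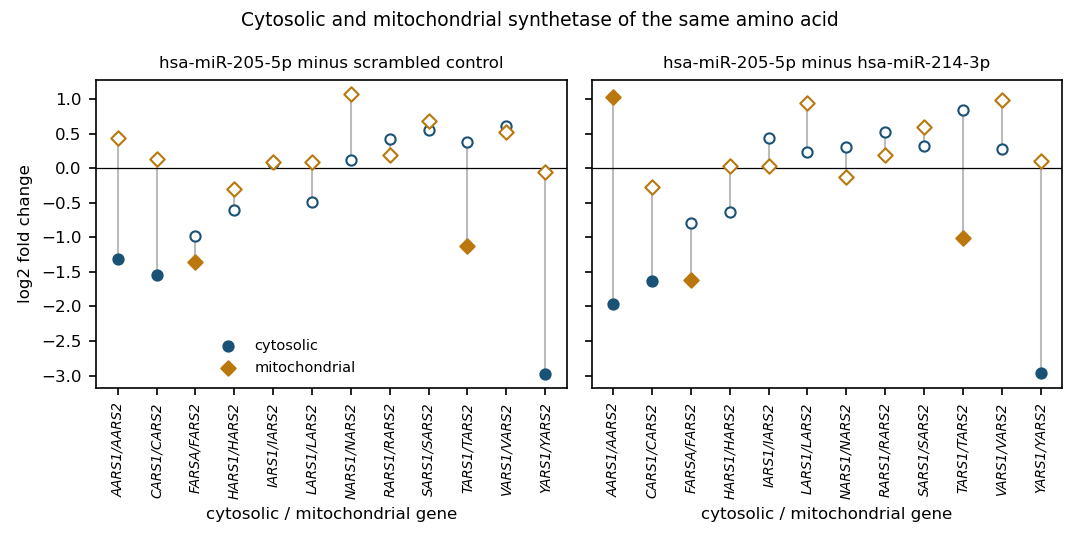
Log2 fold change (y axis) of the cytosolic (circles) and mitochondrial (diamonds) synthetase of each of 12 amino acids (x axis), for hsa-miR-205-5p against the scrambled control (left) and against hsa-miR-214-3p (right), with filled symbols for called genes. AARS1 and AARS2 carry calls in opposite directions on the right, at -1.96 and 1.03.

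The root mean square distance between arrays over the 35 genes was 0.31 for the hsa-miR-205-5p replicates, 0.20 for the hsa-miR-214-3p replicates and 0.60 for the control replicates. Over all kept probes these distances were 0.51, 0.34 and 0.67. Between hsa-miR-205-5p and control arrays the distance was 0.72 to 1.13 over the synthetases and 0.75 to 1.05 over all probes. Between the precursors it was 0.94 to 1.05 and 0.99 to 1.04. The separation of the hsa-miR-205-5p arrays was thus of similar size over all probes. Between hsa-miR-214-3p and control arrays it was 0.48 to 0.55 over the synthetases, below the gap between the control replicates, and 0.58 to 0.78 over all probes, partly above that gap.

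For 4 genes several probes were kept, and they did not always match. The 3 IARS1 probes gave 0.08, -0.83 and 0.01 for hsa-miR-205-5p against the control, from the brightest to the dimmest. The dimmer MARS1 probe was called higher with hsa-miR-205-5p than with hsa-miR-214-3p at 1.08 (adjusted p 0.0404 in limma), while the brighter probe was at -0.20. Of the SARS1 probes, one was designed to a non-coding transcript. The other 31 tested genes, including all 6 called, rest on 1 probe each.

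The promoters of the members were searched for the core of the C/EBP-ATF response element, TGATGNAA, on both strands, from 250 bases before to 50 after each RefSeq start. The motif was found in 8 of the 45 promoters of the 33 members with a promoter in the table (17.8%) and in 3.62% of 35116 promoters of all genes. The 8 genes were AARS1, CARS1, GARS1, IARS1, MARS1, NARS1, TARS1 and YARS2. Of these, AARS1 and CARS1 fell with hsa-miR-205-5p and none rose, and 5 of the 8 lay below 0, against 7.99% of all genes called lower and 45.4% below 0. FARS2 and TARS2 had no match in these windows. YARS1, TARS3, VARS1, LARS1, VARS2 and AARS2 had no entry.

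Windows of 30 bases are shown for the 2 carriers that fell, for GARS1 and for TARS1, which did not fall, with the motif in capitals as read on the gene's strand. In all 4 the capitals are the reverse complement of the searched core. A match describes the letters and is no measure of binding.
AARS1, chr16:70289675-70289704 (GRCh38.p14, minus strand), motif at -187 to -180 from the start: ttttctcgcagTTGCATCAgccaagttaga
CARS1, chr11:3057407-3057436 (GRCh38.p14, minus strand), motif at -2 to 6: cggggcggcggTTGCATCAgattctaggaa
GARS1, chr7:30594834-30594863 (GRCh38.p14, plus strand), motif at -33 to -26: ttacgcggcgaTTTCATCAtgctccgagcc
TARS1, chr5:33440956-33440985 (GRCh38.p14, plus strand), motif at 3 to 10: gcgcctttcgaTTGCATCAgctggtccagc

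The motif, read on either strand, was the same in AARS1, CARS1, IARS1, MARS1, NARS1 and TARS1, whose changes with hsa-miR-205-5p against the control were -1.31, -1.54, 0.08, -0.51, 0.12 and 0.38.

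Among 27 tested genes of the amino acid response, 1 fell and 1 rose with hsa-miR-205-5p, against 7.99% and 4.78% of all genes. At limma's adjusted p without a fold limit, 2 were lower and 4 higher, against 11.3% and 9.81% of all genes. ATF4, the response's transcription factor, was at -0.21 with an adjusted p of 0.411 in limma. DDIT3, a transcription factor induced with it, fell by 1.70 on the log2 scale (adjusted p 0.0368 in limma). Its hsa-miR-205-5p mean of -1.69 lay near the lowest signals detected on those arrays, -1.79 and -1.44, which limits the size of its changes. CHAC1, a glutathione-degrading enzyme, rose by 1.80 (adjusted p 0.0108 in limma) at its brighter probe and measured -0.04 at the dimmer.

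Between the precursors, DDIT3 was lower at -2.56, SESN2, a stress sensor, at -1.56, and NUPR1, a stress-induced chromatin protein, at -1.46, while CHAC1 was higher at 2.59, all past limma's adjusted threshold. With hsa-miR-214-3p against the control, 1 of the 27 genes rose, NUPR1 at 1.08 (adjusted p 0.0373 in limma), a call that was lost with the replicate number as a block and with no filter on dim probes, where no gene was called for hsa-miR-214-3p. Of all genes, 1.09% were higher in that comparison, and 11.3% were lower and 9.18% higher between the precursors. Against the control with hsa-miR-214-3p, DDIT3 was at 0.85 (adjusted p 0.263 in limma) and ATF4 at 0.07. The list's median was 0.26 with hsa-miR-205-5p and 0.15 with hsa-miR-214-3p, against 0.08 and -0.01 for all genes.

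Of 18 tested genes of tRNA handling, 1 fell with hsa-miR-205-5p against the control and none rose, against 7.99% and 4.78% of all genes. It was GATB, a subunit of the mitochondrial amidotransferase that makes glutaminyl-tRNA, at -1.63 (adjusted p 0.0166 in limma). Between the precursors, GATB at -1.89 and CLP1, an RNA kinase of the tRNA splicing complex, at -2.30 were lower with hsa-miR-205-5p. MTO1 and GTPBP3, partners in mitochondrial tRNA modification, were higher at 1.05 and 1.02. Of all genes, 11.3% were lower and 9.18% higher in that comparison. None of the 11 elongation factor genes was called in any of the 3 comparisons at its brightest probe, although dimmer probes of EEF1A1 and TSFM were lower with hsa-miR-205-5p.

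Of 7 tested genes of the interferon-gamma response, IRF1 and IFIT3 fell with hsa-miR-205-5p against the control, at -2.06 and -2.54, and IFIT1 rose, at 1.54, where 7.99% of all genes were lower and 4.78% higher. WARS1, the synthetase known to be induced by interferon-gamma, was at -0.28 with an adjusted p of 0.435 in limma in the same comparison.

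**Figure D4:**
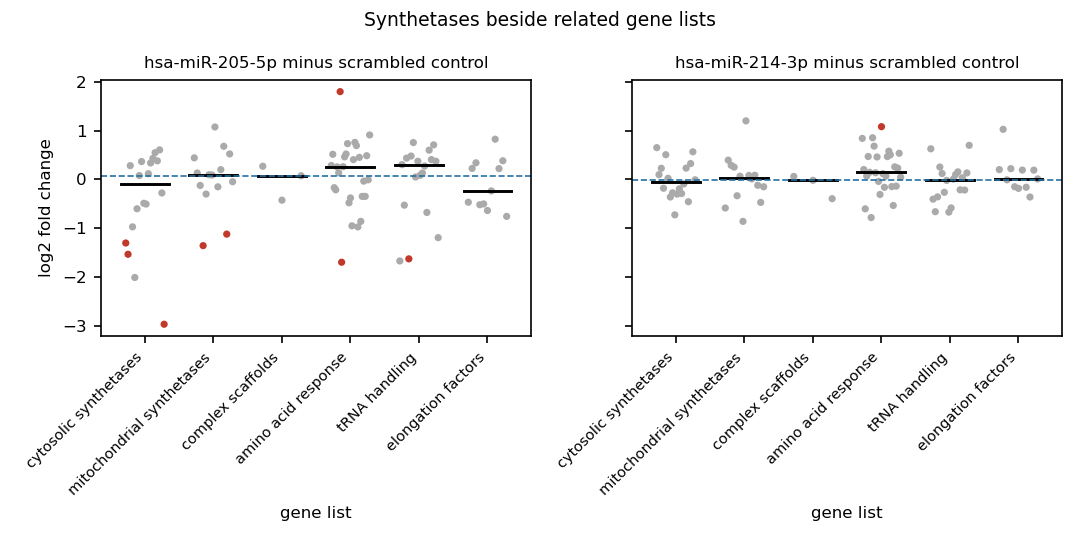
Log2 fold change (y axis) of single genes in the synthetase lists and in 3 related lists (x axis) against the scrambled control, for hsa-miR-205-5p on the left and hsa-miR-214-3p on the right, with red points for called genes, black bars for list medians and a dashed line for the median of all genes. The cytosolic synthetases reach down to -2.97 on the left and only to -0.73 on the right.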

How the data were processed

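Gene expression was measured on 6 one-colour arrays of MDA-MB-231 cells, 2 for each of 3 groups, which follow the sample titles. Scanner output of Agilent Feature Extraction 11.0 was deposited, whose processed signal is a linear intensity after the software's background subtraction and spatial detrending. A series table with log2 values, also deposited, was used only as an alternative. The paper's methods name GeneSpring with a p-value and a 2-fold limit.

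Control and outlier spots were left out (245 to 463 outliers per array), spots of a probe were averaged, and 11 probes missing on an array were dropped. The log2 signal was centred on each array's 75th percentile, which lay at 35.1 to 58.0 before centring. A probe counted as well above background where most of its spots did, and 18464 probes were kept. limma 3.58.1 in R 4.3.3 was run on all 6 arrays, with Benjamini-Hochberg adjustment over the kept probes. Figures were drawn with matplotlib 3.10.9. Two-sided p-values and 95% intervals rest on 3 residual and 2.47 prior degrees of freedom. The number of arrays limits the precision.

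Transcript accessions were matched to symbols of the RefSeq table (GRCh38.p14), and 83.3% of kept probes had one. The array design is of another build, so the table gave names only, and coordinates printed are those of the RefSeq sequences. All 39 members were accounted for, those called in a comparison with every array, the rest by range and counts. Genes given by array without a call were chosen after their values were seen. Of the related lists, called genes were named, at most 4 per list and comparison, with ATF4 and DDIT3. The members and lists were chosen with earlier results of these data known.

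Alternatives were the background correction, the scaling, the authors' table, the filter, the arrays in the fit, the replicate number as a block, an intensity trend, the methods' t-test, the call rule, the probe rule and leaving out each array. normexp was run on the median signal, since the files give no mean signal. The fit was tested on simulated data with known changes.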

Additional observations from a re-analysis of the deposited data

How the results depend on the processing

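With hsa-miR-205-5p against the control, 5 synthetases were lower and 0 higher. The lower count became 3 (AARS1, FARSA and YARS1) with normexp, 1 (YARS1) with no filter on dim probes, 3 with only the 4 arrays compared, and 0 with the methods' t-test after Benjamini-Hochberg adjustment (4 at its unadjusted p). The higher count became 1, NARS2, with probes well above background on all 6 arrays and with limma's unadjusted p. With hsa-miR-214-3p against the control the higher count of 0 became 1, NARS2, at limma's unadjusted p. Between the precursors, the lower count of 5 became 2 with normexp, 8 with scaling to the median and 3 with no filter, and the higher count of 1 became 0 in those 3 settings and 6 with no limit on fold change. Leaving out 1 array gave 0 to 6 lower and 0 to 1 higher for hsa-miR-205-5p, 0 to 0 lower and 0 to 1 higher for hsa-miR-214-3p, and 2 to 6 lower and 0 to 1 higher between the precursors. The cause of these shifts was not tested, except that fewer arrays or more probes entered some fits.

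The labels do not say whether same-numbered arrays share more than the number. Correlations of their deviations over all kept probes were 0.11, 0.01 and -0.05. The fit with the replicate number as a block gave 5 synthetases lower and 0 higher for hsa-miR-205-5p, 0 and 0 for hsa-miR-214-3p, and 5 lower and 1 higher between the precursors. Over all genes the block moved the hsa-miR-205-5p calls from 957 lower and 572 higher to 843 and 498, and the hsa-miR-214-3p calls from 243 and 130 to 0 and 0. Scaling to the median moved the median of all genes with hsa-miR-205-5p from 0.08 to -0.31 and the calls to 1876 lower and 211 higher, and normexp gave 619 and 133.

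Against the control, YARS1 was called in 19 of 21 settings, AARS1 in 17 of 21, CARS1 in 16 of 20, TARS2 in 12 of 21 and FARS2 in 11 of 21, in the same direction in each. CARS1 and GARS1 lie near background, where the signal limits the size of a change. With every array on 1 slide, no slide block was fitted.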
